A study of Homo sapiens with 2 samples.

Results

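A total of 204 chromatin regions were listed for HCT116 cells that expressed TCF7L1-MUT, a form of the transcription factor TCF7L1 whose DNA-binding domain, the HMG box, is mutated. They were chosen by being called at all in that library, and so every value that called them is given as a description and not as a test. They made up 204 of the 3867 regions called in the series, the other 3663 being from cells that expressed TCF7L1 itself. HCT116 is an established human colon cancer line. Both groups carried the hairpin shTCF7L1-2 against the endogenous transcript and a stably selected pCW57.1 plasmid, from which 1 µg/ml doxycycline induced a FLAG-tagged protein, either TCF7L1 or TCF7L1-MUT. Each group was 1 sample of ChIP-seq, in which an antibody to the FLAG tag pulls down DNA bound by the protein. No value therefore had a replicate check, no p-value was computed, and intervals are Wilson 95% intervals that cover counting error only. The lists hold called regions and not reads, so depth is given at each region and not per library.

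TCF/LEF proteins grip DNA through an HMG box, which reads the core sequence CTTTGWW (W is A or T), and they recruit β-catenin or corepressors to Wnt target genes. Large parts of the human genome hold no such genes but tandem arrays. Around centromeres lie alpha satellite, built from units long enough to wrap a nucleosome, the classical satellites built from the pentamer GGAAT, and beta satellite with units of about 68 bases. Arrays of longer units carry ribosomal RNA, U2 small nuclear RNA and gene families such as USP17L, GAGE and DUX4.

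Most TCF7L1-MUT regions lay in such arrays. Of the 192 regions on sequences of the reference used here (GRCh38/hg38), 132 (68.8%, interval 61.9 to 74.9%) stood in sequence that repeats itself in tandem, and 170 (88.5%, interval 83.3 to 92.3%) were multi-copy. A region was called multi-copy where at least 50% of the 31-base words within 100 bp of its summit, the position of the highest signal, occurred more than once in the reference. It was called tandem where the 5 kb around the summit matched itself at some shift of 2 to 2500 bases at least 10 percentage points better than at the median shift. Of 2936 windows placed every 1 Mb along the chromosomes, 16.3% were multi-copy and 3.47% tandem. Of the TCF7L1 regions that no TCF7L1-MUT region overlapped, 19.6% were multi-copy and 1.14% tandem. Over all TCF7L1 regions in the reference the shares were 21.9% and 3.39% (794 and 123 of 3631). By number, tandem regions were thus about as many as in the TCF7L1-MUT list. Leaving out the overlapped regions lowers such shares by construction, because it removes regions in repeats. The 12 regions on patch or alternate sequences were outside the reference and were counted without sequence values.

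The sequences at the summits show these kinds of DNA. The strands printed are the forward strands of GRCh38/hg38, 5′ to 3′, in windows of equal length centred on each summit. The strongest region of the list was alpha satellite on chromosome 5 (chr5:49630887-49631057). Capitals mark a match to the CENP-B box on the reverse strand, the sequence in alpha satellite that the centromere protein CENP-B binds.
Chromosome 5 alpha satellite: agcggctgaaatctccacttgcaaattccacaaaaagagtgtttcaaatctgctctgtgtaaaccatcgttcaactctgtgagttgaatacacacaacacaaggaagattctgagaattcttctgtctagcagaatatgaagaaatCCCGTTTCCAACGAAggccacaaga
The strongest region of the largest alpha satellite family lay on chromosome 17 (chr17:23016311-23016481) and held neither a CENP-B box nor CTTTGWW in these bases, so it has no capitals.
Chromosome 17 alpha satellite: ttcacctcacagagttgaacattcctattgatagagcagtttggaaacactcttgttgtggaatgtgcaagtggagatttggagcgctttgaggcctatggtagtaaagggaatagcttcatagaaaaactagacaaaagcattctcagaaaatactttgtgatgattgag

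The largest sequence family, of 28 regions, is represented by chr1:143202648-143202818 and the next, of 18 regions, by chrY:11721925-11722095. Another pentamer family, of 4 regions, is shown from the unplaced scaffold KI270438.1 (104038 to 104208). Capitals mark GGAAT, which was searched on both strands and found on the forward strand alone in these 3 windows.
Chromosome 1: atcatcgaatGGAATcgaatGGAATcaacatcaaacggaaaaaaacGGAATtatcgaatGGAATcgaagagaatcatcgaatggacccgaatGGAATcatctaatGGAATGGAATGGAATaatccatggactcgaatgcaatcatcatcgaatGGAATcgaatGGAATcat
Chromosome Y: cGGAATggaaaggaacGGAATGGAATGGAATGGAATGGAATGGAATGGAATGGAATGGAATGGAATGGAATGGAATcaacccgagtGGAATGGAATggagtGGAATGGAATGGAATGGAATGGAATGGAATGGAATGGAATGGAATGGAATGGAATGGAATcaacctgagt
Scaffold KI270438.1: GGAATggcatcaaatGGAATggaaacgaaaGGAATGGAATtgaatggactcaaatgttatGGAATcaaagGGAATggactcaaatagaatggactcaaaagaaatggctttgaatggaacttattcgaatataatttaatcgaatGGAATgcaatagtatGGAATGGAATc
The pentamer occurred 10 times on chromosome 1, 27 times on chromosome Y, where it filled 78.9% of the bases, and 9 times on the scaffold. The chromosome Y window is thus close to a pure run of the unit, whereas the others hold diverged copies.

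The strongest region made mostly of single-copy words was chr3:93470497-93470667, an AT-rich stretch (22.2% GC). Capitals mark CTTTGWW.
Chromosome 3: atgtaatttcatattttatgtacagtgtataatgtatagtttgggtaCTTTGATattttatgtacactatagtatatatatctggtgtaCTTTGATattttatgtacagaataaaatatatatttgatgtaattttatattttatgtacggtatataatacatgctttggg
The strongest region on a scaffold lay on GL000216.2 (149524 to 149694) and belonged to the beta satellite family.
Scaffold GL000216.2: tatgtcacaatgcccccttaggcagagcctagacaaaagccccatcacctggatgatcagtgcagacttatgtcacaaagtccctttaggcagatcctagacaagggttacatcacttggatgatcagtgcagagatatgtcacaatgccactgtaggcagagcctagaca
The strongest region in an array of longer units was chr17:43246549-43246719, in the array of U2 small nuclear RNA genes. The strongest mitochondrial summit was at position 16259, and its window spans 16174 to 16344 of the mitochondrial sequence, in the non-coding control region.
U2 array: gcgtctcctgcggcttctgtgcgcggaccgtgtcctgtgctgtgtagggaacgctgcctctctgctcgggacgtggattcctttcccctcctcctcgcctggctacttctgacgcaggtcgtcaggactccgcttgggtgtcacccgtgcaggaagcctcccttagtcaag
Mitochondrial control region: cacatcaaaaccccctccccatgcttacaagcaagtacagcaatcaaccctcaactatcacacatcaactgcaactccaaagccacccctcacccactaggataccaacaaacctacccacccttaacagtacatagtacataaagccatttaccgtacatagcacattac
These windows hold no capitals because no motif was marked in them.

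By kind of sequence, the 204 regions fell into 57 in 5-base repeats, 28 in arrays of longer units (at least 3 copies of the summit window within 200 kb), 23 in repeats with the alpha satellite period, called alpha satellite repeats here, 16 in 68-base repeats, 10 in ribosomal DNA, 7 in a satellite found on scaffolds alone and 3 in 42-base repeats. A further 20 lay in tandem repeats of other periods, 20 in other multi-copy sequence, 6 on mitochondrial DNA and 12 on patch or alternate sequences. The kinds were set by the 5 kb around a summit. Only 2 of the 204, on nuclear sequences of the reference, were single-copy in surroundings that were neither tandem nor an array, and the bases of 1 of these did repeat, as described with the single-copy regions. The share in 5-base repeats was 29.7% of 192 (interval 23.7 to 36.5%), against 0.0681% of the windows placed every 1 Mb. It was 0.171% for the TCF7L1 regions with no partner and 1.05% (38 of 3631) for all TCF7L1 regions. The share in alpha satellite repeats was 12% (interval 8.12 to 17.3%) against 2.49% of the windows. Of all TCF7L1 regions 13 of 3631 (0.358%) were of this kind, and a TCF7L1-MUT region overlapped each of the 13. The 0 of 3507 among those without a partner therefore follows from leaving the overlapped regions out.

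**Figure D1:**
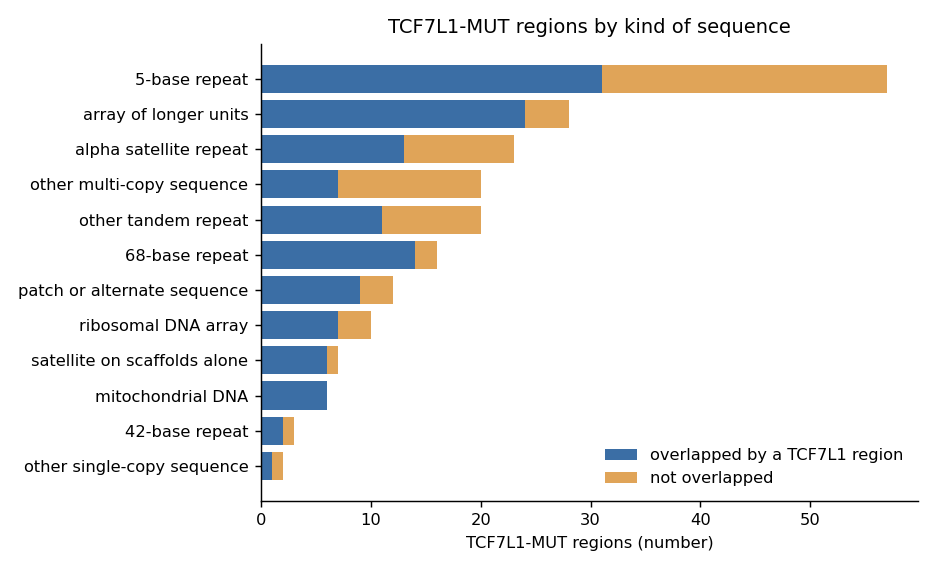
Number of TCF7L1-MUT regions (x axis) by kind of sequence (y axis), split by whether a TCF7L1 region overlapped them by at least 1 bp. The 5-base repeats form the longest bar with 57 regions, 31 of them overlapped, and all 6 mitochondrial regions were overlapped. The satellite labelled as on scaffolds alone is named for its called regions, and its words also occur on chromosomes.

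The regions were unevenly spread over the assembly. On chromosomes 1 to 22, X and Y lay 134 regions (65.7%), on unplaced or unlocalised scaffolds 52 (25.5%), on patch or alternate sequences 12 (5.88%) and on the mitochondrial sequence 6 (2.94%). The 70 regions off the chromosomes made up 34.3% (interval 28.1 to 41.1%), against 1.19% of the TCF7L1 regions without a partner. Of all TCF7L1 regions 2.46% (90 of 3663) were off the chromosomes. On scaffolds lay 49 TCF7L1 regions, so by number they held about as many as the TCF7L1-MUT list. The scaffolds of the reference add up to 11.5 Mb, so they held 4.54 TCF7L1-MUT regions per Mb, whereas the chromosomes held 0.0434 per Mb. Only 22 scaffolds had a region, led by GL000225.1 with 7. Among chromosomes, chromosome 1 had 19 regions, chromosome 4 had 16, chromosome 17 had 13, and chromosomes 12 and 15 had none. Relative to length, chromosome 19 had the most with 17.1 per 100 Mb, followed by chromosome 17 with 15.6, chromosome 16 with 11.1, chromosome 21 with 10.7 and chromosome Y with 10.5.

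On the chromosomes the regions gathered beside centromeres and gaps. A centromere model here is the main block of sequence that repeats with the alpha satellite period on each chromosome, and a gap is a run of at least 100 unknown bases. Inside a centromere model lay 26 of the 134 regions (19.4%, interval 13.6 to 26.9%), and within 1 Mb of one lay 46 (34.3%, interval 26.8 to 42.7%). Known chromosome sequence within the same distance made up 3.96% of the total. The share was 1.00% of the TCF7L1 regions without a partner and 1.62% (58 of 3573) of all TCF7L1 regions on chromosomes. Within 100 kb of a gap lay 77 regions (57.5%, interval 49.0 to 65.5%), against 2.19% of known sequence. The share was 0.917% of the TCF7L1 regions without a partner and 2.27% (81 of 3573) of all TCF7L1 regions on chromosomes. By number, about as many regions of each list were thus near a gap. Near a centromere model or a gap by these 2 distances lay 96 TCF7L1-MUT regions (71.6%), against 124 of all TCF7L1 regions (3.47%). When regions closer than 1 Mb to each other were joined, the 134 gave 54 runs, of which 28 held 1 region alone. At least 3 regions stood in 16 runs, which together held 86 of the 134. The largest run was on chromosome 1 from 143185017 to 144104714, with 13 regions.

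**Figure D2:**
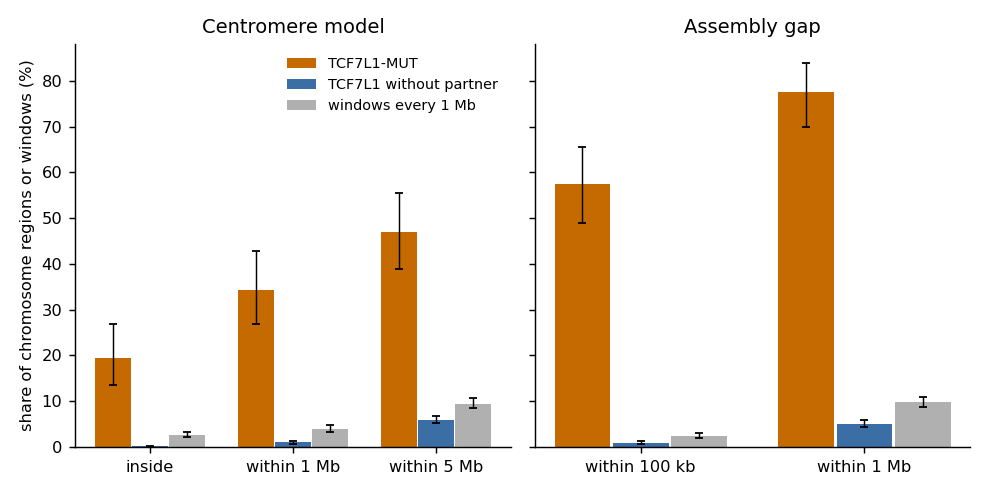
Share of regions on chromosomes (y axis, %) that lie inside or within a distance of a centromere model (left) or of an assembly gap (right), for TCF7L1-MUT regions, TCF7L1 regions without a TCF7L1-MUT partner, and windows every 1 Mb; error bars are Wilson 95% intervals. Within 100 kb of a gap the bars stand at 57.5%, 0.917% and 2.49%.

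Most regions had copies elsewhere in the reference. The words around a summit had a median of 9 copies (quartiles 3 and 23.3, highest 4297), and 95 of the 192 regions (49.5%) had at least 10 copies. Only 22 regions (11.5%, interval 7.69 to 16.7%) reached 100 copies, against 7.58% of TCF7L1 regions without a partner and 5.07% of the windows. Some words were dispersed rather than clustered. A region at chr11:94237464-94238826 had a median of 78 copies, with most of its words found on 22 chromosomes, and shared words with 385 TCF7L1 regions elsewhere. A region at chr18:33225681-33225979, in an intron of CCDC178, had 1051 copies spread over 24 chromosomes. Both were singled out after their values were seen. When regions that share at least 10 distinct 31-base words were joined, the 192 regions fell into 96 families, 10 of them with at least 3 members. Those 10 held 94 regions and 74 regions stood alone. Regions of a family are not independent sites.

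The alpha satellite regions were the strongest of the large kinds. Strength is given as fold enrichment, as written by the authors' peak caller MACS2: the pile of reads at the summit over its local background, with 1 added to each. Over all 204 regions the median fold enrichment was 7.32 (quartiles 5.85 and 10.3). Over the 23 regions in alpha satellite repeats it was 12.9 (range 6.49 to 23.03). The 23 were set by their surroundings. Besides the chromosome 3 region described below, the bases of the region at 5006 of scaffold KI270591.1 did not repeat so. They matched themselves best at a shift of 197 bases (60.8%), and at the alpha satellite period in 24.2%. In 1 of the 23 at least 5 copies of GGAAT stood within 100 bp of the summit. Of the 20 strongest regions 11 were in alpha satellite repeats, and a TCF7L1 region overlapped all 20. Chromosome 17 held 10 of the 23, between 23016156 and 26886018, with fold enrichments of 11.3 to 21.6. The strongest 3 of these, at 23016156, 25074256 and 26594660, had 21.6, 21.6 and 20.9 from 86, 58 and 81 reads. A TCF7L1 region overlapped 9 of these 10, with fold enrichments of 12.5 to 19.7, and each of the 9 was higher in the TCF7L1-MUT sample. The 3 on chromosome 11 reached 8.28 to 12.9 from 11 to 20 reads, and no TCF7L1 region overlapped them. Single regions of this kind on chromosomes 1, 4, 6 and 7 had 6.49, 9.56, 10.6 and 9.87. Alpha satellite is found on all 24 chromosomes, as the windows every 1 Mb also showed, yet regions of this kind lay on 8. A CENP-B box stood within 100 bp of the summit in 11 of the 23 (47.8%, interval 29.2 to 67.04%) and in no region of another kind. Among the windows every 1 Mb that were alpha satellite repeats, 29 of 73 held one (39.7%, interval 29.3 to 51.2%). Of the 23 regions 12 belonged to the same sequence family, so the intervals do not cover the spread of independent sites. The difference was not tested.

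The 2 strongest regions differed in how they compared with the TCF7L1 sample. The region at chr5:49630757-49631215 had a fold enrichment of 23.03 from 73 reads over a background of 2.21, and its TCF7L1 partner had 8.87 from 12 reads over 0.465. This 2.60-fold difference was the widest of all pairs. The region at chr3:93470244-93470928 had 22.8 from 375 reads over 15.5, and its partner had 22.1 from 313 reads over 13.2, so the pair was nearly equal. It lay inside the centromere model of chromosome 3, 221 bp from a gap, and was counted among alpha satellite repeats because its surroundings repeat so. Its own bases did not: they matched themselves at a shift of 42 bases in 61.5% of positions and at the alpha satellite period in 27.5%. It also shared words with the regions in 42-base repeats at chr4:49709238-49709579 and on the scaffolds KI270466.1 and KI270467.1, and all 4 of this family held CTTTGWW near the summit. Their fold enrichments were 10.4, 9.11 and 10.2.

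The 57 regions in 5-base repeats had a median fold enrichment of 6.80 (range 3.08 to 19.2) and were spread over chromosomes 1 (15 regions), 16 (10), 4 (6), 5 (6), Y (3), 10 (2), 17, 20 and 21 (1 each) and scaffolds (12). At least 5 copies of GGAAT on either strand stood within 100 bp of the summit in 54 of them. By shared words 2 of the 57 belonged to the family of the 68-base repeats, 1 on chromosome 5, described below, and 1 on chromosome Y. The bases of the latter, at 11305262, matched themselves best at a shift of 68 bases, in 62.6% of positions. The strongest was on chromosome Y at 11721777 to 11722250, with 19.2 from 55 reads, and its TCF7L1 partner had 16.8 from 33 reads. The strongest of the chromosome 1 family, at 143202551 to 143202904, had 15.5 from 39 reads against 10.9 from 16 reads in the partner. At chr16:46389747-46391205 the fold enrichment was only 4.99 although 221 reads were stacked, since the background was 43.5. Its partner had 4.47 from 103 reads over 22.3. The regions of chromosome 16 were overlapped in 9 of 10 cases and those of chromosome 4 in 1 of 6.

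The 16 regions in 68-base repeats, the unit of beta satellite, had a median fold enrichment of 6.82 (range 5.76 to 19.9), and 14 of them had a partner. Most were on the scaffolds GL000225.1 and GL000216.2, and the others on chromosomes 10, 18 and Y. The strongest, at 149365 to 149853 of GL000216.2, had 19.9 from 217 reads, and its partner had 17.8. The region at 160585 of this scaffold was placed here by its surroundings. Its own bases matched themselves best at a shift of 191 bases, in 37.0% of positions. Of the TCF7L1 regions in the reference, 19 of 3631 (0.523%) were in 68-base repeats. The satellite whose called regions were on scaffolds alone had a period between those of beta and alpha satellite. The 7 regions set to it by their surroundings were weaker, with a median of 4.64 (range 3.59 to 6.67). Not all repeated so in their own bases. Those at 129067 of GL000214.1 and at 3675 and 18664 of GL000224.1 matched themselves best at shifts of 61, 61 and 198 bases. The matches were 33.3%, 31.9% and 39.5% of positions. DUX4 is the homeobox gene of the D4Z4 array, and pseudogenes of it lie near several of these repeats. For 7 regions the nearest transcription start site (TSS) was that of a DUX4L pseudogene, all 7 had a partner, and their fold enrichments ran from 6.73 to 16.8. The strongest of them was in DUX4L26 at chr3:75668934-75669567, with 16.8 against 16.1 in the partner. The grouping by DUX4L was made after the values were seen.

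**Figure D3:**
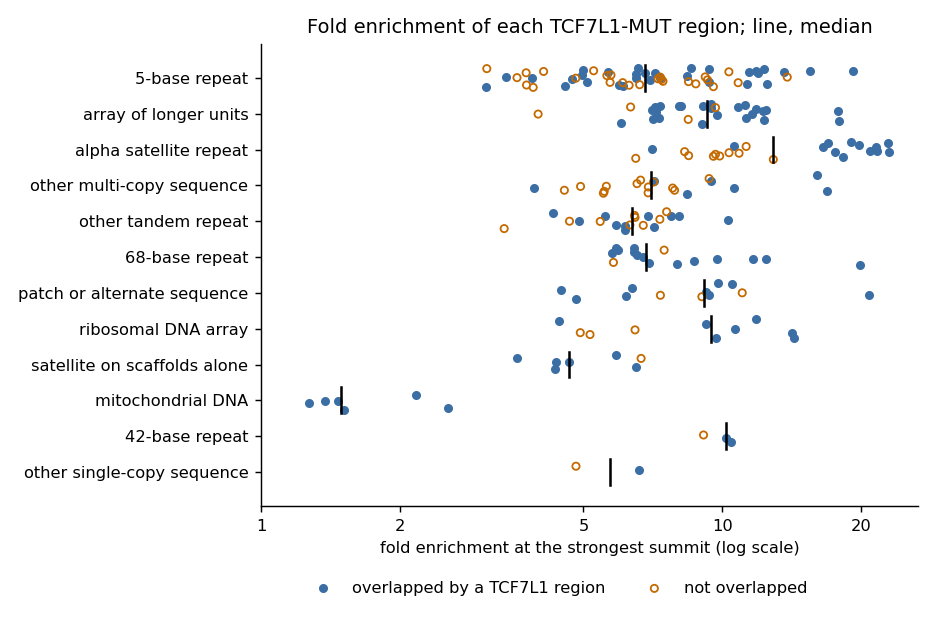
Fold enrichment at the strongest summit of each TCF7L1-MUT region (x axis, log scale) by kind of sequence (y axis); filled points are overlapped by a TCF7L1 region, open points are not, and the line marks the median. Regions in alpha satellite repeats have the highest median of the kinds with over 3 regions, 12.9, and the mitochondrial regions the lowest, 1.49. The satellite labelled as on scaffolds alone is named for its called regions.

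Arrays of longer units had a median fold enrichment of 9.26 (range 3.99 to 17.9), and 24 of the 28 regions had a partner. They included gene families. The USP17L genes, which encode deubiquitinating enzymes, are repeated every 4746 bases on chromosome 4. Their 4 regions, at 9268395, 9271731, 9324198 and 9368666, had fold enrichments of 9.08, 11.6, 11.3 and 9.02, against 6.76, 11.6, 6.71 and 5.95 in the partners. All 4 were thus called in both samples. The first lay in the coding exon of USP17L22, and the next 2 lay upstream of USP17L23 and USP17L24, within 1 kb of their TSS.

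In the array of U2 small nuclear RNA genes, a component of the spliceosome, repeated every 6161 bases within CCDC200 on chromosome 17, regions at 43231872 and 43246419 had 9.44 and 17.9, against 9.10 and 15.6 in the partners. The GAGE genes, a family of cancer/testis antigens with units of 9553 bases on chromosome X, held regions at 49589960 (7.07, partner 7.09), in GAGE2A, and at 49595990 (9.47, partner 10.9). In DANT2, a non-coding RNA gene at the DXZ4 macrosatellite of chromosome X with 18 copies every 2987 bases, the region at 115732341 had 12.3 from 57 reads, and its partner 16.1. DUX4L8, near the end of chromosome 4 in units of 3297 bases, had 12.2 against 8.19. Chromosome 19 held 8 regions in arrays, 3 in units of 2527 to 2535 bases in introns and 5 in units of 5344 to 5381 bases further along, all 8 with a partner. Apart from the region in GAGE2A, the first U2 region and the first 3 USP17L regions, these were singled out after their values were seen.

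Of the 10 regions in ribosomal DNA, 4 lay on chromosome 21 between 8219693 and 8420649 and 6 on the scaffolds GL000220.1 and KI270733.1. Ribosomal DNA was taken as the sequence within 30 kb of the 5.8S ribosomal RNA genes annotated on chromosome 21, and any window with at least 50% of its words from there. The chromosome 21 regions had fold enrichments of 14.3, 10.7, 11.9 and 14.2, and their partners 11.995, 10.2, 7.82 and 13.4. The scaffold regions were weaker, at 4.43 to 9.67, and 3 of them had a partner. The regions of ribosomal DNA were also singled out after their values were seen.

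The 6 mitochondrial regions were the weakest of the list by fold and among the most deeply covered. They covered 6469 bases, 39.0% of the mitochondrial sequence. Their fold enrichments were 2.17 over MT-RNR1 (12S ribosomal RNA), 1.51 over MT-RNR2 (16S ribosomal RNA), 1.38 in MT-ND1 and 1.47 in MT-ND5 (subunits of respiratory complex I), 1.27 in MT-CO1 (a subunit of cytochrome c oxidase) and 2.54 in the region with its summit in the control region. They rested on 476 to 548 reads over backgrounds of 215 to 396, whereas the median background over all regions was 3.05. All 6 had partners, with fold enrichments of 2.69, 1.82, 1.82, 2.16, 1.79 and 2.93 in the same order, each above the TCF7L1-MUT value. A nuclear copy of mitochondrial sequence at chr1:633827-634222, in the pseudogene MTATP6P1, had 16.02 from 72 reads over 3.56, against 10.0 in the partner. There 72.5% of the region's words were also found on the mitochondrial sequence. It was singled out after its values were seen.

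The regions were also placed relative to genes. These counts were not made for the TCF7L1 regions or the windows, so they are a description and show no excess or lack. Of the 134 chromosome regions 93 were intergenic, 33 were in introns, 5 in non-coding exons and 3 in coding exons. Within 2.5 kb of a protein-coding TSS lay 9, namely the 3 at USP17L genes, 1 each at GAGE2A and at the U2 array, and 4 others. These 4 were in MUC3A, which encodes a membrane mucin (chr7:100958512-100958811, 761 bases downstream of a TSS in the coding exon, 4.29), near UPK3BL2 (chr7:102541708-102542070, 4.55), near RASA4, a Ras GTPase activating protein (chr7:102613565-102613932, 6.65), and near PGA5, a pepsinogen (chr11:61240254-61240552, 6.90). Only the MUC3A region had a partner, with 3.32. Its surroundings repeated every 51 bases, and a region in the coding exon of MUC12, another membrane mucin, repeated every 84 bases (6.47, no partner; singled out after its values were seen).

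The single-copy regions on chromosomes numbered 8, and 6 of them had a partner. Besides those on chromosomes 3 and 16 and in MUC3A, 2 were in 5-base repeats on chromosome 5, at 49599545 (5.08, partner 6.71) and 49601500 (4.81, no partner). The first was in a 5-base repeat by its surroundings alone. Its own bases matched themselves best at a shift of 69 bases, in 42.1% of positions, and it shared words with the 68-base repeat family. The region at chr19:7450584-7451099 lay in an intron of ARHGEF18 and had 6.15 against 6.08. It was itself a 34-base repeat, its own bases matching themselves at that shift in 86.5% of positions. The surroundings of the last 2 were in no tandem repeat. At least 5 copies of GGAAT stood within 100 bp of the summit in 1 of these 2, against 0.0681% of the windows every 1 Mb. One, at chr6:76817943-76818241, was among the 3 least certain regions, with 4.82 from 9 reads and a −log10 q-value of 1.59. The other, at chr8:144125703-144126036, lay in intergenic sequence upstream of HGH1 and had 6.59 from 33 reads against 5.47 from 25 reads in its partner. Its own bases matched themselves at a shift of 30 bases in 75.7% of positions, against 22.4% at the median shift. On chromosome 8 also lay 6 regions in the array of REXO1L pseudogenes (85734361 to 85820080), with 6.33 to 17.8, of which 3 had a partner, singled out in the same way.

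The list ended at a −log10 q-value of 1.37, for a region in an intron of KATNAL2 at chr18:46967144-46967576, with 3.99 from 13 reads. The next 2 were the chromosome 6 region and the patch region CHR_HSCHR19_2_CTG3_1 at 34393040 (1.74). Values just outside the threshold were not analysed here. The strongest patch region, CHR_HG2002_PATCH at 228631501 to 228632004, had 20.8 from 77 reads, against 17.2 from 51 reads in its partner.

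TCF7L1-MUT regions were then compared with the TCF7L1 list, to ask which regions are called only with an intact DNA-binding domain and which are called without it. A TCF7L1 region overlapped 131 of the 204 (64.2%, interval 57.4 to 70.5%), while from the other side 3.60% of the TCF7L1 regions (132 of 3663) were overlapped by a TCF7L1-MUT region. The share with a partner was 61.9% on chromosomes, 63.5% on scaffolds, 75% on patch or alternate sequences and 100% on the mitochondrial sequence. It was 87.5% in 68-base repeats, 85.7% in arrays of longer units, 56.5% in alpha satellite repeats, 54.4% in 5-base repeats and 35.0% in other multi-copy sequence. Regions with a partner had a median fold enrichment of 8.05 and those without one 6.74. They also rested on more reads, with medians of 44 and 20. At a fold enrichment of at least 5, 108 of 167 regions had a partner, at 10 or more 46 of 54 and at 15 or more 19 of 19.

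The signal in pairs was close. Summits lay a median of 20 bases apart, and in 116 of the 131 pairs within 100 bp. The fold enrichment in the TCF7L1-MUT sample divided by that in the TCF7L1 sample had a median of 1.08 (quartiles 0.969 and 1.27, range 0.624 to 2.60), and 119 pairs (90.8%) were within 1.5-fold. In 2 pairs the TCF7L1-MUT value was at least 2-fold higher, and in 0 at least 2-fold lower. A pair exists only where both samples were called, so places with a much lower value in either sample tend to be left out. Outside the pairs stood 3531 TCF7L1 regions and 73 TCF7L1-MUT regions. The ratios and the counts of pairs higher or lower are shaped by this choice. TCF7L1-MUT was higher in 87 of the 125 nuclear pairs and in 0 of the 6 mitochondrial pairs. Across the 131 pairs the values were correlated with a Pearson r of 0.915 on the log2 scale and a Spearman coefficient of 0.885, as a description, since pairs share families and base composition. More reads were stacked in the TCF7L1-MUT sample in 111 pairs (median ratio 1.29), and the local background was higher there too (median ratio 1.33). The library totals that the study lists differ by far less than these ratios, and the ratios were not scaled by them.

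**Figure D4:**
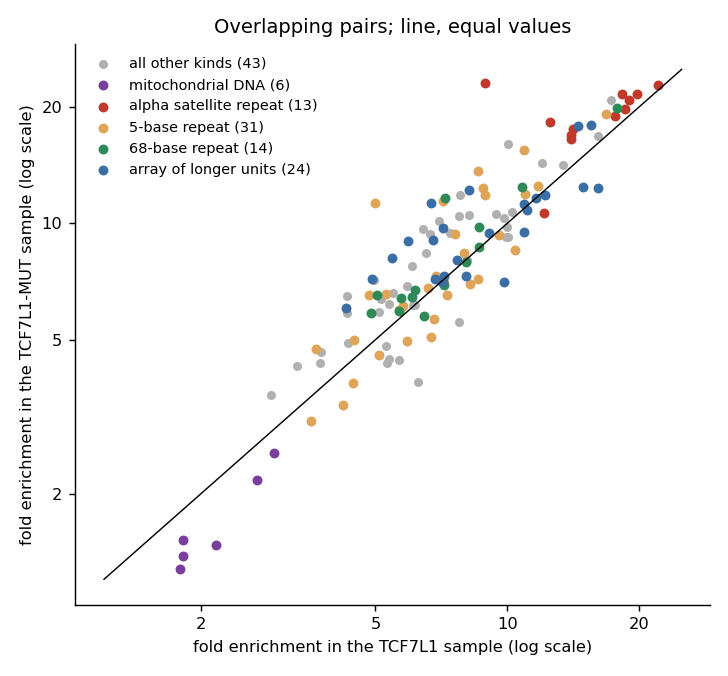
Fold enrichment in the TCF7L1-MUT sample (y axis, log scale) against that in the TCF7L1 sample (x axis, log scale) for the 131 overlapping pairs, coloured by kind of sequence, with a line of equal values. The 6 mitochondrial pairs lie below the line, and 119 of the 131 pairs are within 1.5-fold of it.

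The 73 regions without a partner also lay mainly in repeats. Of the 70 in the reference, 63 (interval 80.8 to 95.1%) were multi-copy and 71.4% were tandem, against 87.7% and 67.2% of those with a partner. On chromosomes the nearest TCF7L1 region was a median of 30283 bp away, and 21 of 51 had one within 10000 bp. Words were shared with a TCF7L1 region elsewhere by 47 of the 70 (67.1%, interval 55.5 to 77.0%), among them all 26 in 5-base repeats. The other 23 shared fewer than 10 words with any TCF7L1 region in the reference. No background share was computed for these distances and shared words, so they do not set the regions apart from other repeated sequence. The 5 strongest without a partner had fold enrichments of 13.8 (chr1:143232753-143233272, a 5-base repeat), 12.9 (chr11:52864709-52865051), 11.3 (chr17:26573016-26573318) and 10.9 (chr5:49645940-49646253), the last 3 of them alpha satellite repeats, and 11.0 on the alternate sequence CHR_HSCHR8_1_CTG6. They rested on 67, 20, 17, 18 and 15 reads.

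The TCF core sequence was not frequent in the list. CTTTGWW, searched on both strands within 100 bp of the summit, was present in 23 of 192 regions (12%, interval 8.12 to 17.3%). It was present in 27.1% of the TCF7L1 regions without a partner (interval 25.7 to 28.6%) and in 15.9% of the windows every 1 Mb (interval 14.7 to 17.3%). The 23 regions included 8 of the 57 in 5-base repeats, 7 of the 23 in alpha satellite repeats and all 3 in 42-base repeats, and 0 of the 16 in 68-base repeats. With and without a partner the shares were 12.3% and 11.4%. GC content at the summit was a median of 45.3%, against 51.7% for the TCF7L1 regions without a partner and 39.8% for the windows. Its part in the motif shares was not tested.

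**Figure D5:**
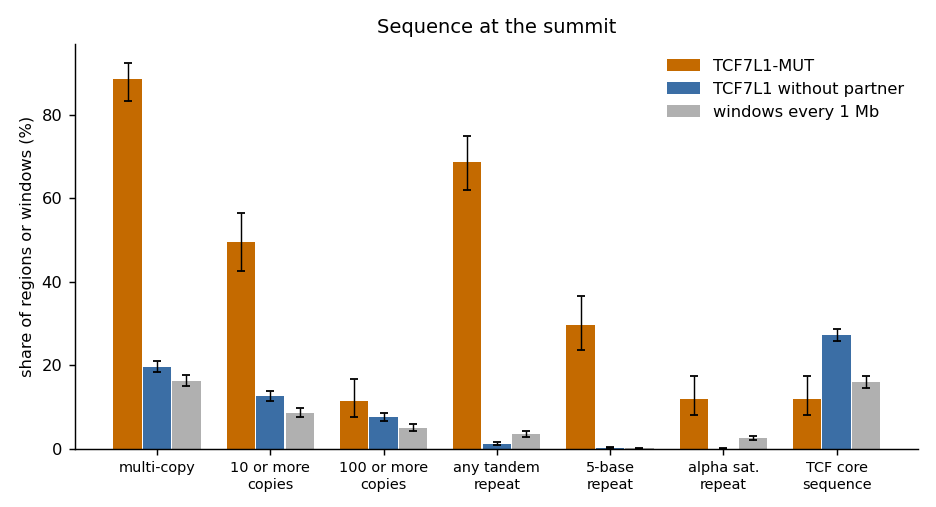
Share of regions or windows (y axis, %) with each sequence feature at the summit (x axis) for TCF7L1-MUT regions, TCF7L1 regions without a TCF7L1-MUT partner, and windows every 1 Mb; error bars are Wilson 95% intervals. TCF7L1-MUT regions stand highest for repeats, with 68.8% in any tandem repeat, and lowest for the TCF core sequence, with 12%.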

How the data were processed

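ChIP-seq regions of 2 HCT116 samples, TCF7L1-MUT and TCF7L1, were grouped by their labels. The authors had trimmed the reads with skewer, mapped them to GRCh38/hg38 with BWA 0.7.12 and called peaks per sample with MACS2 2.1.0. Whether an input library was used, which q-value was required and how multiply mapped reads were handled are not given in the sources used here. The deposited lists give a fold enrichment (a ratio with a pseudocount of 1), the −log10 p-value and −log10 q-value at each summit, and a score that was not used. Of several summits the one with the highest −log10 q-value was kept.

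Reads and background at a summit were solved from fold and p-value by a Poisson model (tolerance 0.001) and are on each library's own scale. Words of 31 bases were counted over 194 reference sequences without alternates. A tandem period of 5, 42 or 68 bases, or a longer satellite period, had to exceed every shorter shift, and the scripts were tested on simulated data. Genes came from GENCODE release 44. Python 3 packages were numpy 2.4.6, pandas 2.3.3, scipy 1.17.1 and pysam 0.24.0. No repeat annotation was used.

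The members, lists and rules were chosen with earlier results of these data known. Named regions are the mitochondrial ones, the 5 strongest overall and without a partner, the strongest on scaffolds, on patches and in each of the 6 largest families, single-copy ones on chromosomes, those within 2.5 kb of a protein-coding TSS, and the 3 with the lowest −log10 q-value. Alternatives were stricter q-values and fold enrichments, other distances, copy and overlap rules, and chromosomes alone.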

Additional observations from a re-analysis of the deposited data

How the results depend on the processing

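Alternatives gave 36 values for 11 results, of which 26 stayed within the interval of the reported value or, for the number of families, within 1.5 times it, and 10 moved further. The share of chromosome regions near a centromere model was 47.0% within 5 Mb and 19.4% inside the model, in place of 34.3% within 1 Mb, and the share near a gap was 77.6% within 1 Mb in place of 57.5% within 100 kb. The multi-copy share was 93.6% at a fold enrichment of at least 5, 75% with 51-base words and 50.5% where 90% of the words had to be repeated, in place of 88.5%. The tandem share was 51.04% with a margin of 20 percentage points in place of 68.8%. With summits within 100 bp 57.4% of the regions had a partner in place of 64.2%. At a fold enrichment of at least 5 in each list the median of regions with a partner was 9.46 in place of 8.05. CTTTGWW was present in 20.3% of windows of 250 bp to either side in place of 12%. At that width the TCF7L1 regions without a partner had 48.9% and the windows every 1 Mb 37.4%. Each alternative widened, narrowed or restricted the set counted by its own construction. No paired analysis was possible because a lone library stood for each protein, and for the same reason no replicate was left out.

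Each group was 1 library of 1 stable line, so differences between the lists cannot be told apart from differences between libraries. The assembly's copy numbers need not be those of HCT116 cells. Patch and alternate sequences were not searched.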
